A study of Mus musculus with 6 samples.

Results

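miR-21a is a mouse microRNA whose hairpin precursor gives rise to 2 mature strands, mmu-miR-21a-5p and mmu-miR-21a-3p. Both were identified by their systematic names among the mouse features of the array, so that 2 of the 1247 mouse miRNAs are described here, with control spots left out. They were compared between RNA labelled as liver of 3 male C57BL/6 mice given carbon tetrachloride (CCl4), a solvent toxic to hepatocytes, and of 3 male C57BL/6 mice given corn oil, the vehicle that both groups received. The dose of CCl4 was 0.6 mL/kg, injected intraperitoneally in corn oil, and control mice were injected with an equal volume of the vehicle. Injections were given 2 times a week for 10 weeks from 7 weeks of age. The RNA of each mouse was labeled with Cy3 and hybridized to its own array.

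miRNAs are short RNAs that guide the silencing complex to partly complementary sites in mRNAs, mainly through a seed near their 5′ end. miR-21 is among the most abundant miRNAs of many tissues, its precursor lies within the host gene Vmp1, and its 5p strand is the one usually loaded, while most of the 3p (passenger) strand is degraded. In the liver, miR-21 is present in hepatocytes, and it is well known from activated stellate cells, the collagen-producing cells of the fibrotic liver. Its known targets include Pdcd4, an inhibitor of translation, and Smad7, an inhibitor of TGF-β signaling.

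The sequences of both strands are shown to set the abundant arm beside the scarce one, and those of miR-21b and miR-21c because these are the other miRNAs of that name on the array. All were taken from the RefSeq table of assembly GRCm38.p6, written 5′ to 3′, and capitals mark the seed, bases 2 to 8. Coordinates are not given because the scanner output names another build.
miR-21a-5p: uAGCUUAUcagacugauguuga
miR-21a-3p: cAACAGCAgucgaugggcuguc
miR-21b: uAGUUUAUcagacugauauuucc
miR-21c: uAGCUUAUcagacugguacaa

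With positions counted from 1 at the 5′ end, miR-21b had the same base as miR-21a-5p at 18 of 22 compared positions and differed by C4U, G18A, G21U and A22C, of which C4U lies in the seed. miR-21c had the same base at 16 of 21 positions, differed by A16G, G18A, U19C, U20A and G21A, and shared the whole seed. Among the 1679 mature mouse miRNAs of the table, miR-21c was the 1 other miRNA with the seed of miR-21a-5p, and no other miRNA had that of miR-21a-3p. In the precursor of 92 bases the capitals mark the arms, at positions 18 to 39 and 56 to 77, with 16 bases between them.
Mir21a hairpin: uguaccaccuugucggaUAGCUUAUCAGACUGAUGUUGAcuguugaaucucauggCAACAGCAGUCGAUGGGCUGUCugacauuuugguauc

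One array stood apart before any normalization. The third CCl4 array detected 334 miRNAs, against 186 to 245 on the others, and its summed detected signal was 316413, against 167865 to 177351. Its rank correlation with the other arrays was 0.792 to 0.860, while arrays of the same group without it correlated at 0.979 to 0.989. The liver marker miR-122-5p had a total signal of 2158 there, against 13110 to 18345. There were 111 miRNAs detected on that array alone, with miR-127-3p (818) and miR-375-3p (769) the brightest, and miR-7a-5p read 985 there against 9.65 to 13.5 elsewhere, all 3 named after their values were seen. The labels name liver for this sample as for the others, but its markers thus differ from those of the other 5, and whether it holds liver RNA of the same kind was not tested. The comparisons are therefore given with and without that array. The CCl4 arrays lay in row 1 of the slide and the corn oil arrays in row 2, so that row and treatment cannot be told apart.

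The total signal of a miRNA is a background-subtracted intensity on a linear scale, not normalized between arrays, which the scanner software builds from the signals of its probes. For miR-21a-5p it was 2735, 2721 and 2630 in the corn oil group (arrays 1 to 3) and 4844, 4563 and 2768 in the CCl4 group. CCl4 arrays 1 and 2 lay well above the corn oil arrays, whereas array 3 lay just above them. The mean was 2695 ± 57.1 (SD, n = 3) in corn oil and 4058.2 ± 1126.5 (SD, n = 3) in CCl4, a ratio of 1.51. Against the corn oil mean, the CCl4 arrays stood at 1.80-, 1.69- and 1.03-fold. Without the third array the CCl4 mean was 4704 ± 199 (SD, n = 2), a ratio of 1.75. Thus, the third array held nearly all of the spread of its group.

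The 3 CCl4 arrays did not overlap with the 3 corn oil arrays, and the exact two-sided permutation test on the log2 total signal gave p = 0.1, the smallest value that 3 against 3 arrays allow. Before normalization, however, 105 of the 166 miRNAs detected on all arrays, 63.3%, also had all CCl4 arrays above all corn oil arrays. With CCl4 arrays 1 and 2 alone, 107 of 166 did, 64.5%. The order of the raw signals of miR-21a-5p was thus shared by most of the miRNAs tested.

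**Figure D1:**
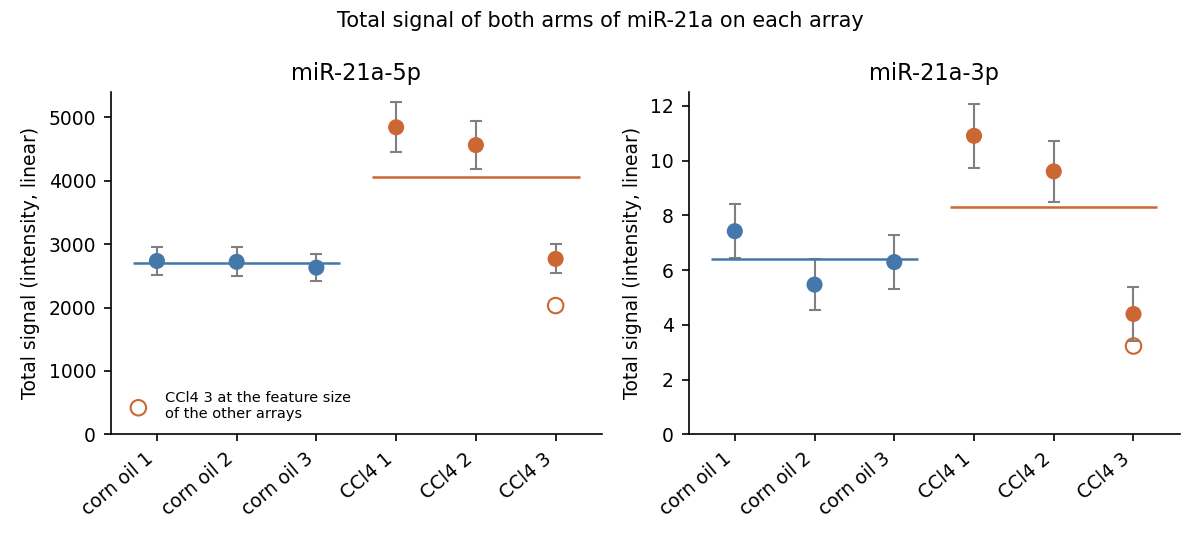
Total signal (linear intensity) of miR-21a-5p and miR-21a-3p on the 3 corn oil arrays (blue) and the 3 CCl4 arrays (orange), with group means as horizontal lines and the error estimated by the scanner software as bars. CCl4 arrays 1 and 2 lie above all corn oil arrays for both strands, and the open circles show CCl4 array 3 rescaled to the feature size of the other arrays, 2031 for miR-21a-5p and 3.23 for miR-21a-3p.

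The third CCl4 array also differed in how the scanner software turned spots into a total signal. The software set the feature size fraction to its default of 0.6 on 5 arrays and to a measured value of 0.818 on that array, so that its totals are 1.36 times higher for the same spot signal. At the default size, miR-21a-5p would read 2031 there, below all corn oil arrays. The non-overlap of the raw totals therefore rested on that setting of the software.

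Both probes of miR-21a-5p, each spotted 20 times, were brightest on CCl4 array 1, then on CCl4 array 2, and dimmest on CCl4 array 3. The spot median of probe 1 was 7750, 7835 and 7462 in corn oil and 13707, 12898 and 5805 in CCl4. That of probe 2 was 1933, 1811 and 1820 in corn oil and 3602, 3270 and 1389 in CCl4. On the level of the spots the third CCl4 array was thus the lowest of all arrays with either probe, and the other CCl4 arrays were the highest. Spots of 1 probe on 1 array varied by 2.06 to 5.71% (CV), all 40 spots were well above background on every array, and probe 1 gave 79.0 to 81.2% of the total. The log2 difference in total signal was 0.54 with probe 1 and 0.60 with probe 2 over all arrays, and 0.78 and 0.88 without the third CCl4 array. The totals of that array carry its larger feature size. By spot median the differences were 0.39 and 0.45 over all arrays, and 0.79 and 0.89 without it.

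**Figure D2:**
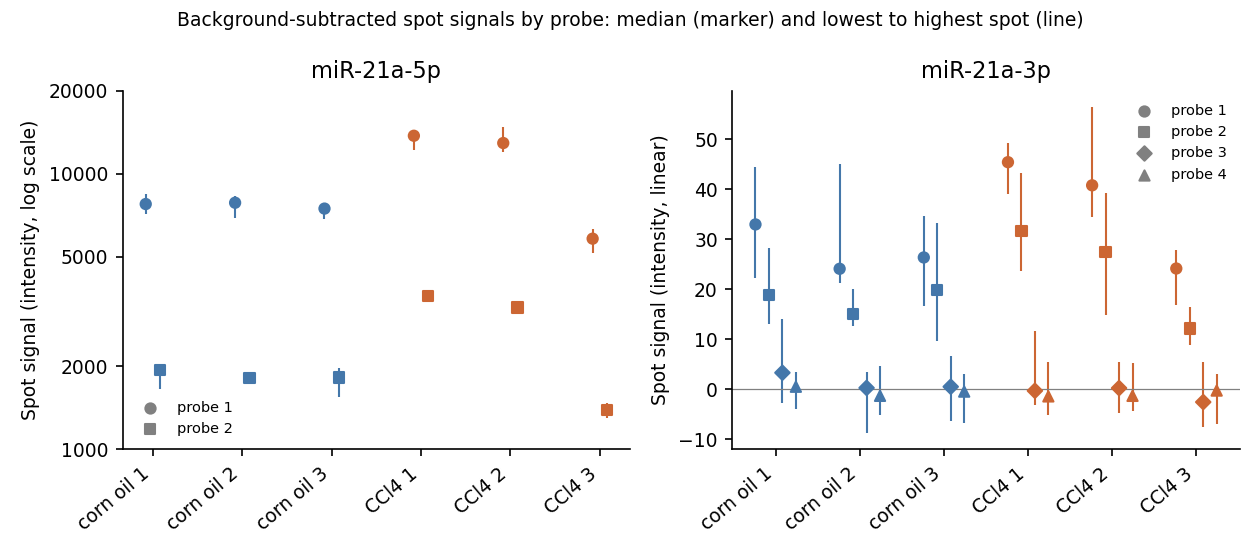
Background-subtracted spot signals of the 2 probes of miR-21a-5p (log scale) and the 4 probes of miR-21a-3p (linear scale) on each array, corn oil in blue and CCl4 in orange, with the median as marker and the lowest to highest spot as line. Both miR-21a-5p probes are brightest on CCl4 arrays 1 and 2 and dimmest on CCl4 array 3, and probes 3 and 4 of miR-21a-3p lie around 0 on every array.

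In the order of the detected miRNAs, miR-21a-5p took place 6 on all corn oil arrays, place 5 on CCl4 arrays 1 and 2 and place 16 on CCl4 array 3. In corn oil it stood between miR-3968 above and miR-22-3p below. On CCl4 arrays 1 and 2 it had changed places with miR-3968 and stood directly below miR-5100. On the third CCl4 array its neighbors were miR-26a-5p above and miR-125b-5p below, which held places 22 to 25 and 29 to 42 on the others. Its share of the detected signal was 1.54, 1.60 and 1.57% in corn oil and 2.73, 2.62 and 0.875% in CCl4. Thus, the share was higher than in corn oil on CCl4 arrays 1 and 2 and lower on array 3.

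**Figure D3:**
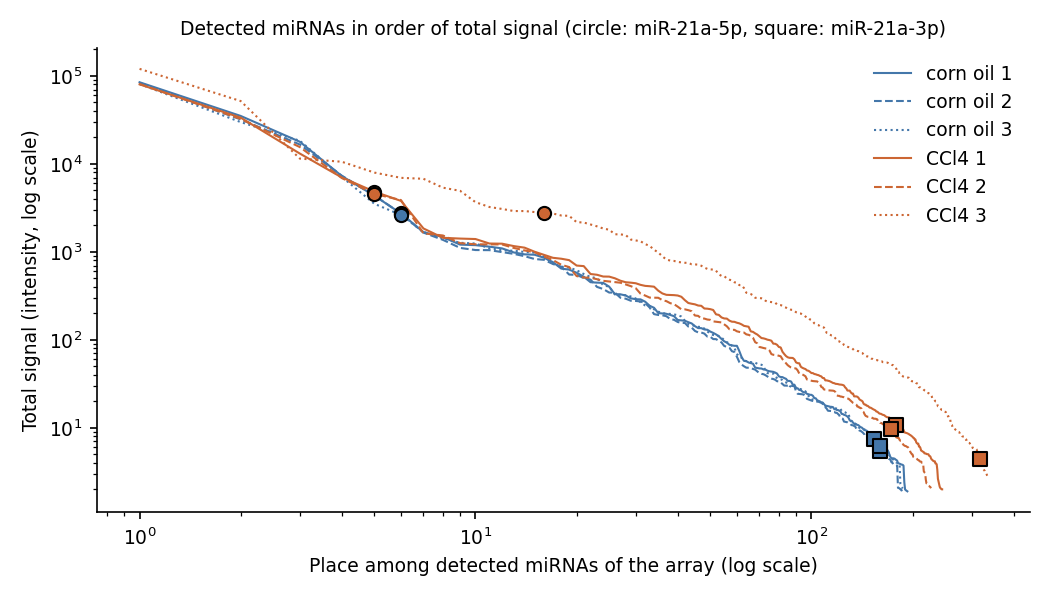
Total signal (log scale) of the detected miRNAs of each array against their place in the order of signal (log scale), corn oil in blue and CCl4 in orange, with circles for miR-21a-5p and squares for miR-21a-3p. The curve of CCl4 array 3 runs above the others from place 4 on, and miR-21a-5p sits at place 16 on it against places 5 and 6 elsewhere.

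The passenger strand was near the lower limit of the array. The total signal of miR-21a-3p was 7.42, 5.47 and 6.29 in corn oil and 10.9, 9.60 and 4.395 in CCl4, with software errors of 10.6 to 22.8%. CCl4 arrays 1 and 2 were again the highest and CCl4 array 3 the lowest of all 6, so that the groups overlapped. The total of CCl4 array 3 held 1 probe, however, where those of the other arrays held 2, so that it is not built like them. The means were 6.39 ± 0.980 and 8.30 ± 3.44 (SD, n = 3 each), and the exact two-sided permutation test on the log2 scale gave p = 0.5. Without the third array the CCl4 mean was 10.3 ± 0.919 (SD, n = 2), a ratio of 1.60, and the groups did not overlap, as for 64.5% of all miRNAs tested. The strand took places 154, 160 and 160 in corn oil and 179, 173 and 317 in CCl4, where more miRNAs were detected.

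Of its 4 probes with 10 spots each, 2 carried the signal. Probe 1 had at least 6 of 10 spots well above background on every array, with totals of 4.70, 3.27 and 3.72 in corn oil and 6.34, 5.63 and 4.395 in CCl4. Probe 2 gave 2.72, 2.20 and 2.58 in corn oil and 4.57, 3.98 and 2.37 in CCl4. On the third CCl4 array the total held probe 1 alone and left probe 2 out, whereas elsewhere it was the sum of both. By probe total, that array lay within the corn oil range with either probe, but these totals carry its larger feature size. At the default size, probe 1 would read 3.23 there, below all corn oil arrays. By spot median, probe 1 lay within the corn oil range there (24.14 against 24.09 to 32.9). Probe 2 lay below it (12.2 against 15.1 to 19.8). The low total of the strand there, its place, the SD, the permutation test and the fits of the total are also affected by the probe left out. Over all 40 spots, 30, 25 and 27.5% were well above background in corn oil and 50, 47.5 and 15% in CCl4.

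The ratio of both arms within an array, which no scaling between arrays can move, was compared next. The signal of miR-21a-5p over that of miR-21a-3p was 369, 498 and 418 in corn oil and 444, 475 and 630 in CCl4. The ratio of 630, on the third CCl4 array, is raised by the probe of miR-21a-3p left out of the total there. On the log2 scale the means were 8.731 ± 0.22 and 8.995 ± 0.27 (SD, n = 3 each), a difference of 0.26 that lay within the spread of the arrays (exact two-sided permutation p = 0.3). With the brightest probe of each arm the ratios were 465, 676 and 569 in corn oil and 604, 647 and 507 in CCl4, a difference of 0.05 (exact permutation p = 0.8). For the ratio of the total signals, the difference without the third CCl4 array was 0.11. Probe brightness is not calibrated between sequences, so that a ratio is no ratio of molecules.

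miR-21b and miR-21c were not detected on any array. The median spot signal of their probes was −3.70 to 2.67, and at most 1 spot of 40 was well above background on an array.

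For the comparison between groups, log2 total signals of the 166 miRNAs with a detection flag on every array were quantile normalized, and limma was used with Benjamini-Hochberg adjustment. Calls needed both an adjusted p below 0.05 and more than a 2-fold change. The normalized log2 signal of miR-21a-5p was 11.79 on each corn oil array and 12.22, 12.22 and 10.05 on the CCl4 arrays. Quantile normalization gives equal values to equal places, so that its SD was 0 in corn oil. The difference, CCl4 minus corn oil, was −0.30 (SE 0.63, 95% interval −1.89 to 1.29, limma adjusted p = 0.77), beside a median of −0.14 over all miRNAs tested. Neither direction was called, and the interval covers a 2-fold change both ways. The fit called 20 of 166 miRNAs, 12.0%, with 12 higher and 8 lower in CCl4. That split was 18 and 0 without normalization and 10 and 17 after scaling each array to its median.

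Without the third CCl4 array the sign turned. miR-21a-5p then differed by 0.47 (SE 0.025, 95% interval 0.40 to 0.54, limma adjusted p = 1.8e-03), while the median over all miRNAs was −0.12. This passed the adjusted p but was under 2-fold, so that it was not called. The fit called 28 miRNAs, 16.9%, and 31, 18.7%, were higher at an adjusted p under 0.05 whatever their fold. The small SE follows from the values of equal places, 6 on all corn oil arrays and 5 on both CCl4 arrays left, and thus does not contain the spread of the raw signals.

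The size of the difference followed the scaling. Without normalization miR-21a-5p differed by 0.55 (limma adjusted p = 0.26), under the median of 0.99 over all miRNAs tested. Without the third CCl4 array and without normalization it differed by 0.80 (SE 0.093, limma adjusted p = 2.2e-03), above the median of 0.45. After scaling to the 75th percentile without that array it differed by 0.16 (limma adjusted p = 0.27), and after scaling to the median by −0.06 (limma adjusted p = 0.69). In both of these, as without normalization, its difference lay 0.35 above the median of all miRNAs. That value is the same by construction, since scaling shifts all miRNAs of an array alike. With the array in, scaling to the 75th percentile gave −0.61 and scaling to the median gave −0.84, both below the median miRNA, while quantile normalization ahead of the detection filter gave −0.30, which was 0.13 above the median of −0.43. On the 5 arrays, the excess of miR-21a-5p over the median miRNA was thus between 0.35 and 0.59, and its absolute direction depended on the scaling.

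**Figure D4:**
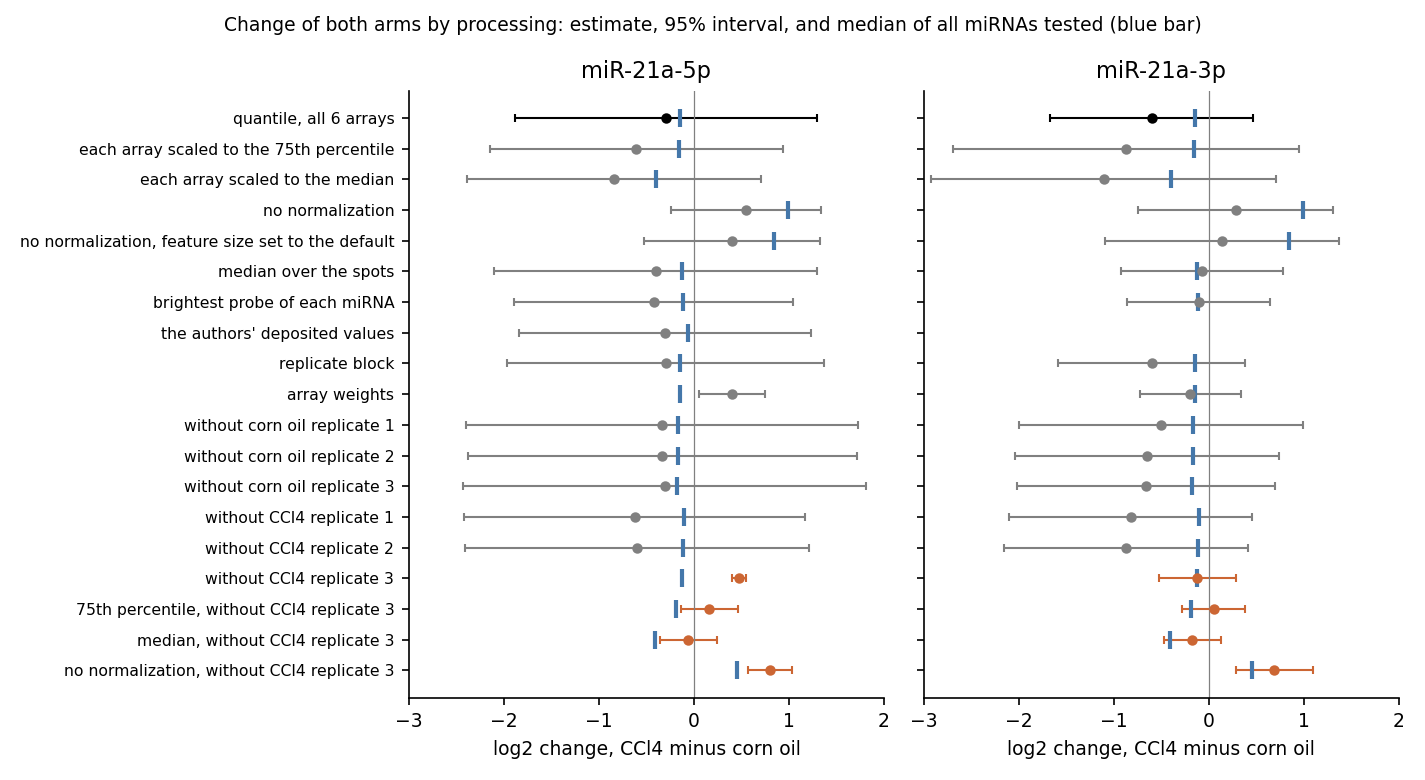
Log2 difference, CCl4 minus corn oil, of miR-21a-5p and miR-21a-3p under the main processing (black), alternatives (grey) and alternatives without CCl4 array 3 (orange), with the estimate as point, the 95% interval of the limma fit as line and the median of all miRNAs tested as blue bar. miR-21a-5p lies below the blue bar in all plotted settings with CCl4 array 3 except array weights and above it in the 4 orange settings, where its estimates range from −0.06 to 0.80.

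miR-21a-3p had normalized log2 signals of 3.52, 3.11 and 3.06 in corn oil and 3.06, 3.11 and 1.72 in CCl4. The last of these comes from a total that left out a probe counted on the other arrays. Its difference was −0.60 (SE 0.43, 95% interval −1.67 to 0.47, limma adjusted p = 0.39), and −0.12 (limma adjusted p = 0.52) without the third CCl4 array. Without that array and without normalization it was 0.69 (limma adjusted p = 0.018), beside the median of 0.45. The passenger strand was thus not called in any of these fits.

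The marker miRNAs of liver cell types were set beside miR-21a-5p, since its level in whole tissue depends on the cells present. In bulk RNA, fewer cells of a type and less RNA per cell cannot be told apart. The 5 hepatocyte miRNAs (miR-122-5p, miR-122-3p, miR-192-5p, miR-194-5p and miR-148a-3p) together took 11.2 to 12.4% of the detected signal in corn oil and 8.43, 10.2 and 0.869% in CCl4, and miR-122-3p was not detected on CCl4 array 3. Of the 4 tested, limma called 0 (0 at an unadjusted p under 0.05), with a median log2 difference of −1.73, and −0.52 without the third CCl4 array. Without that array 0 were called as well, where 16.9% of all miRNAs tested were. There, 2 of the 4 had an unadjusted p under 0.05, miR-192-5p (−0.48, limma adjusted p = 0.023) and miR-148a-3p (−0.57, limma adjusted p = 0.046). In the same fit, 87 of all 166 miRNAs tested had a limma adjusted p under 0.05, so that these 2 do not set the list apart. The low share of the hepatocyte list on CCl4 array 3 stood beside the low place of miR-21a-5p on it, and the part of the one in the other was not tested.

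The 6 stellate and mesenchymal miRNAs took 0.0396 to 0.0650% in corn oil and 0.363, 0.146 and 0.390% in CCl4. Of the 4 tested, miR-199b-5p (2.28, limma adjusted p = 0.016) and miR-199a-5p (1.34, limma adjusted p = 0.032) rose and 0 fell, where 12.0% of all miRNAs tested were called. Both were also called without the third CCl4 array, where 16.9% of all were. miR-145a-5p was not detected in corn oil or on CCl4 array 2, and read 10.8 and 46.8 on CCl4 arrays 1 and 3. The list was thus higher on all CCl4 arrays, array 3 included, where miR-21a-5p was at its lowest share. Before normalization, however, 63.3% of all miRNAs tested had higher totals on all CCl4 arrays, and the leukocyte shares below stand beside that figure too. The 7 leukocyte miRNAs took 0.0598 to 0.0710% in corn oil and 0.326, 0.246 and 0.219% in CCl4. Of the 4 tested, limma called 0 (1 at an unadjusted p under 0.05, miR-342-3p, with a difference of 0.85 under 2-fold and adjusted p = 0.014). miR-223-3p, a miRNA of myeloid cells, was called without the third CCl4 array (1.75, limma adjusted p = 1.8e-03). miR-155-5p and miR-150-5p were not detected in corn oil. In CCl4, miR-155-5p was detected on array 1 alone (5.34), and miR-150-5p read 7.37, 4.99 and 26.2.

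The 2 endothelial miRNAs took 0.332 to 0.404% in corn oil and 0.464, 0.471 and 1.18% in CCl4, and those of red cells, 2 of 3 being on the array, took 0.263 to 0.445% in corn oil and 0.412, 0.180 and 0.675% in CCl4. On CCl4 array 3 both shares were the highest of all arrays. The endothelial share was higher on all CCl4 arrays, as were the totals before normalization of 63.3% of all miRNAs tested. In both lists limma called 0 members (0 at an unadjusted p under 0.05). Of the 5 biliary epithelial miRNAs, miR-200c-3p and miR-141-3p were not detected on any array, 2 were tested and limma called 0 (0 at an unadjusted p under 0.05). The parts of these cell types in the signal of miR-21a-5p were not tested.

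**Figure D5:**
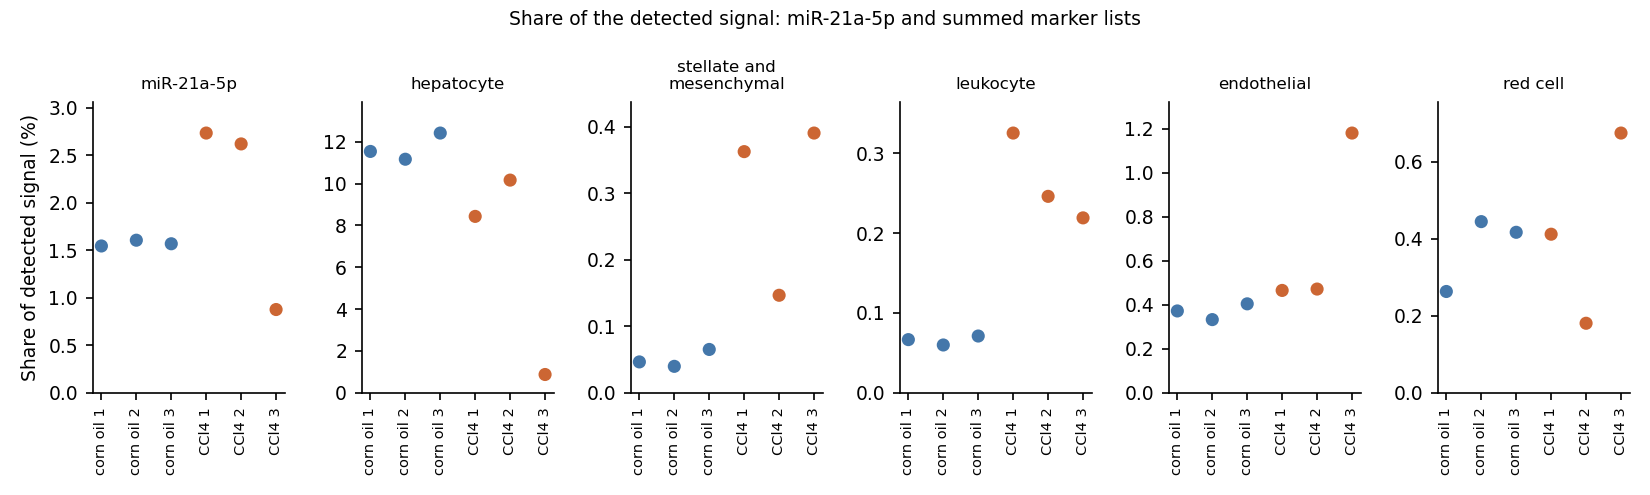
Share of the detected signal (percent, linear, a separate axis for each panel) of miR-21a-5p and of the summed marker miRNAs of 5 cell types on each array, corn oil in blue and CCl4 in orange. On CCl4 array 3 the shares of miR-21a-5p (0.875%) and of the hepatocyte list (0.869%) are the lowest of all arrays, while those of the mesenchymal, endothelial and red cell lists are the highest.

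Other miRNAs known from fibrosis were counted in the same fit. Of 18 listed, 14 were tested, 3 rose, 1 fell and 10 were not called, where 12.0% of all miRNAs tested were called, with a median of 0.07 beside −0.14 over all miRNAs. Besides miR-199a-5p and miR-199b-5p, miR-34a-5p, a p53 target, rose by 1.71 (limma adjusted p = 0.026), and miR-378a-3p, encoded within Ppargc1b, fell by 1.37 (limma adjusted p = 0.011). Members of the miR-29 family, which targets collagen mRNAs, differed by 0.15 (miR-29a-3p), 0.47 (miR-29b-3p) and −0.40 (miR-29c-3p), none of them called. Without the third CCl4 array, 3 rose and 1 fell as well, where 16.9% of all miRNAs tested were called. The members were chosen with earlier results of these data known. That miR-34a-5p rose and miR-378a-3p fell on these arrays was thus known beforehand. The calls of the list were in part fixed by its choice, so that they cannot be weighed against the share of all miRNAs called.

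The miRNAs most like miR-21a-5p in their pattern were sought by Pearson's r of the normalized log2 signals, as a description over arrays that share their groups and scaling. Over 6 arrays and 163 compared miRNAs, they were miR-5109 (r = 0.97), the hepatocyte miRNA miR-122-5p (0.97), miR-3098-5p (0.96), miR-1224-5p (0.95) and miR-221-3p (0.95). All of them had their lowest normalized signal on the third CCl4 array. miR-21a-3p stood at place 19 (0.90), a value that includes its total on that array, from which a probe was left out. Without that array and over 160 miRNAs, they were miR-574-5p (0.996), miR-2137 (0.996), miR-99b-5p (0.994), miR-223-3p (0.994) and miR-3096b-3p (0.994), and r with miR-21a-3p was −0.40. There the normalized signal of miR-21a-5p was 11.60 on every corn oil array and 12.07 on both CCl4 arrays, so that r follows the group alone. The raw totals of both arms were higher on those CCl4 arrays, with ratios of 1.75 and 1.60. No miRNA was in both sets.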

How the data were processed

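RNA labelled as liver of 6 mice was measured on 1-color miRNA arrays. The authors deposited scanner output extracted with Feature Extraction 11.0.1.1, whose values are background-subtracted intensities on a linear scale, with an undetected miRNA set to 0.1. They also deposited intensities of 111 miRNAs after quantile normalization, which hold miR-21a-5p but not miR-21a-3p.

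Groups came from the labels. As in the study's methods, the fit used a filter on detection flags, quantile normalization and limma (3.58.1, R 4.3.3, lmFit and eBayes). Here 166 miRNAs passed and log2 was taken before normalization, whereas the deposited values of miR-21a-5p equal those after normalization on the linear scale. Single values were compared by exact permutation (scipy 1.17.1). Python 3.11.15 with pandas 2.3.3, numpy 2.4.6 and matplotlib 3.10.9 served for tables and plots. Simulated data with known changes were used to test the fit. They had the same spread on every array and none that stood apart, so that they do not test the fit with an array like CCl4 array 3. The miRNAs named are both arms, miR-21b and miR-21c, neighbors in rank, the 5 most alike, and members of the marker and fibrosis lists. Members and lists were chosen with earlier results of these data known. Of the 1247 miRNAs, 1017 matched a RefSeq sequence. Samples of equal replicate number did not deviate together (correlations −0.18, 0.11 and 0.03), and the main fit did not pair mice. These correlations cannot exclude a pairing, since the order of the corn oil samples differs between the deposited columns and the scanner arrays. No spot was saturated, and 3 arrays per group limit the precision. Alternatives covered scaling, signal per miRNA, filter, background, moderation and arrays left out. Target genes were not analysed here.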

Additional observations from a re-analysis of the deposited data

How the results depend on the processing

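The difference of miR-21a-5p (−0.30) kept its sign in 19 of 27 alternatives (−0.84 to −0.06). It turned to 0.55 without normalization, 0.40 with array weights (adjusted p = 0.058, weight of CCl4 array 3 0.0359 against at least 0.859 for the others), and, in alternatives chosen after seeing the data, 0.40 without normalization at the default feature size. Without CCl4 replicate 3 it turned to 0.47, and, chosen after seeing the data, to 0.47 with the filter on the 5 arrays left, 0.80 without normalization, 0.16 after 75th percentile scaling and 0.38 in the authors' deposited values. Its adjusted p ranged from 9.5e-04 to 0.85. miR-21a-3p (−0.60) kept its sign or was 0 in 20 of 25 (−1.11 to 0) and turned to 0.28 without normalization, and, chosen after seeing the data, to 0.037 with normexp on the median spot signal, 0.13 at the default feature size, and, without CCl4 replicate 3, 0.69 without normalization and 0.0502 after 75th percentile scaling. Its adjusted p ranged from 0.018 to 1. Leaving out 1 array gave −0.62 to 0.47 for miR-21a-5p, −0.87 to −0.12 for miR-21a-3p and 0.11 to 0.38 for the arm ratio. The arm ratio kept its direction in 8 alternatives, but was 0.05 with the brightest probe of each arm. That alternative takes the same probe on every array, whereas the total of miR-21a-3p left out a probe on CCl4 array 3. With replicate numbers taken as a block, miR-21a-5p gave −0.30 (adjusted p = 0.75), miR-21a-3p −0.60 (0.32) and 6 calls in place of 20. The calls over all miRNAs were also 6 without filter, 4 with normexp, 31 with array weights, 32 with detection in at least 1 group, 12 of 111 in the deposited values, 41 and 32 without CCl4 replicate 3 with no scaling or median scaling, and 5 to 7 without corn oil replicate 1, 2 or 3 or CCl4 replicate 1. The planned normexp on the mean spot signal was not run, since the scanner columns used here give spot medians and no spot means, and the deposited values gave none for miR-21a-3p. The causes were not tested.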

Other observations

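In the intensities the authors deposited after quantile normalization, miR-21a-5p stood at 3785 on each corn oil array and at 4940, 4940 and 1189 on the CCl4 arrays, with places 6, 6, 6, 5, 5 and 16 of 111 miRNAs. The deposited corn oil columns 1, 2 and 3 had the rank order of scanner arrays 2, 3 and 1 (Spearman 1), and the CCl4 columns that of their own arrays. The group means of corn oil do not depend on this order.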
